A study of Mus musculus with 20 samples.

Results

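The chromatin around Zscan4c, Zscan4d, Zscan4f and Zfp352, 4 genes known for their expression at the two-cell stage, was described from a list of accessible regions of mouse embryonic stem (ES) cells. The genes were chosen by name. Each listed peak that overlapped one of them in the GENCODE annotation, or lay at most 50000 bp from it, was taken, which gave 15 of 102373 listed peaks. Zscan4c had 1 peak, Zscan4d had 4, Zscan4f had 1 and Zfp352 had 9. None of the 15 overlapped a gene body of the 4 genes, and none lay within 1000 bp of one of their annotated transcription start sites.

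The peaks came from ATAC-seq, an assay whose transposase cuts and tags accessible DNA, in the ES cell line ZHBTc4, whose OCT4 is shut off by doxycycline (dox). All cells carried YPet-MD, a fluorescent protein with a mitotic degron (MD), and one of 2 lentiviral OCT4 constructs, SNAP-MD-OCT4, with the active degron, or SNAP-MD*-OCT4, with a mutated one. Both constructs were driven by the constitutive PGK promoter, in cells pooled by sorting for like SNAP levels. After 40 h in 1 µg/ml dox, cells labelled with Hoechst were sorted by cell cycle phase (early G1, late G1, S phase, late S/G2), with 2 replicates for each construct and phase, 16 libraries in all. Another 4 libraries, from unsorted cells without dox, did not enter the list, and every group was grown in serum with LIF, CHIR99021 and PD184352. The list merges the peaks of the 16 libraries and gives a chromosome, a start and an end for each peak, with no value for any library. The constructs and the phases can therefore not be compared at these genes, the depth is unknown, no replicate error exists, and a region open in 1 library counts like a region open in 16. In sorted bulk cells, a region open in few cells and a region weakly open in many cannot be told apart either.

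Zscan4 genes encode proteins with a SCAN domain and zinc fingers. They are transcribed in the two-cell embryo and, in ES cell cultures, in a small and changing fraction of cells, and they are known for a role in telomere maintenance. Zfp352 encodes a zinc finger protein and is likewise transcribed at the two-cell stage. The homeobox factor DUX activates many genes of this stage, among them Zscan4 genes and Zfp352, and DPPA2 and DPPA4 act upstream of DUX in ES cells.

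In GRCm38, Zscan4c lies at chr7:11005745-11010547 on the plus strand, Zscan4d at chr7:11161374-11166159 on the minus strand and Zscan4f at chr7:11397915-11402318 on the plus strand. They belong to a cluster with 6 further annotated copies, Zscan4a, Zscan4b, Zscan4e, Zscan4-ps1, Zscan4-ps2 and Zscan4-ps3. Zfp352 stands alone at chr4:90218820-90225702 on the plus strand, and no other protein-coding gene lies within 50000 bp of it. The promoters of the 4 genes are shown first, because the list holds no peak on any of them. They are the RefSeq promoter windows of GRCm38.p6, 250 bases before to 50 after the RefSeq start, at chr7:11005495-11005794 (plus strand), chr7:11166099-11166398 (minus strand), chr7:11397665-11397964 (plus strand) and chr4:90218570-90218869 (plus strand). Capitals in the 3 Zscan4 promoters mark the 8 of 266 aligned positions at which they are not all alike, and capitals in the Zfp352 promoter mark TAATCC.
Zscan4c promoter: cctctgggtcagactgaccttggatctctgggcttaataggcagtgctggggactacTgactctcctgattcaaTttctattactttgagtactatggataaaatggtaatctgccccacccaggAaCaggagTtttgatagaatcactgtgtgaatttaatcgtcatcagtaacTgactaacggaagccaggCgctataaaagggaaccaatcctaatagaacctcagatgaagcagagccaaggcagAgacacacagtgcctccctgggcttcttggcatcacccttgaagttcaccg
Zscan4d promoter: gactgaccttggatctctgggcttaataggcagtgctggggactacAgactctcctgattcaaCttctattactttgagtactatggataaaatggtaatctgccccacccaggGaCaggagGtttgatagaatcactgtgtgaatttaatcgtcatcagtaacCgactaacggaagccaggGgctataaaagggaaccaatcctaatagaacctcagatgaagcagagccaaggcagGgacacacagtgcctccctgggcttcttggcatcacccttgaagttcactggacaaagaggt
Zscan4f promoter: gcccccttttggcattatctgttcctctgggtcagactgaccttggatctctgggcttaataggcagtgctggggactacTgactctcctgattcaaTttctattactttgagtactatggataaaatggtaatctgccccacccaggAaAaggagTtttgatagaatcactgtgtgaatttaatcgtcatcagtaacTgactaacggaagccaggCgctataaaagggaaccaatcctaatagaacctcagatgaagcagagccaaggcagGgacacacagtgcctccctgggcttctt
Zfp352 promoter: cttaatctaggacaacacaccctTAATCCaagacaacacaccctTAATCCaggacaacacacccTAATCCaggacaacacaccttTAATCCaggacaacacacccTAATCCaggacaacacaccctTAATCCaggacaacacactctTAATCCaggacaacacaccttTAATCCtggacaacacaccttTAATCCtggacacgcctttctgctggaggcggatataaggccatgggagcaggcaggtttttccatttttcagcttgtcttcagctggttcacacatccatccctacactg

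The 3 Zscan4 promoters were near-identical. Those of Zscan4c and Zscan4f differed at 2 of 266 aligned positions (99.2% identity), and Zscan4d differed from each of them at 7 (97.4%). Each of the 3 held TGATAGAATCA, at 114, 125 and 91 bases before the start in Zscan4c, Zscan4d and Zscan4f. This is 1 base away from the DUX letters searched, TGATT and AATCA with any 1 base between them. The substitution is T5A, counted from 1 at the first of these letters. Within 1 mismatch, 0.640% of 21263 protein-coding promoters held the DUX letters on either strand, and 0.0282% held them exactly. The Zfp352 promoter held neither form. It instead held 9 copies of TAATCC, the reverse complement of GGATTA, which homeodomain proteins of the OTX and OBOX type are known to bind. GGATTA was present on either strand in 6.42% of protein-coding promoters, and 1 of the 21263, that of Zfp352 itself, held as many as 9. The copies followed each other in a tandem array. A match is a description of letters and does not show a bound site.

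All 4 promoters were poor in CpG. The ratio of observed to expected CpG was 0.242 for Zscan4c, 0.176 for Zscan4d, 0.186 for Zscan4f and 0.142 for Zfp352, whereas the median of protein-coding promoters was 0.567, with quartiles of 0.226 and 0.827. Thus 3 of the 4 lay under the lower quartile, and Zscan4c lay just above it.

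No annotated start of the 4 genes had a listed peak within 1000 bp, while 70.4% of 21938 protein-coding genes had one. The nearest peak was 13018 bp from the start of Zscan4c, 7733 bp from that of Zscan4d and 12940 bp from the nearer of the 2 starts of Zscan4f. Zfp352 has 2 annotated starts, at chr4:90218820 and chr4:90223625, with the nearest peak 14860 and 12043 bp away. The 5′ ends lay in stretches without any listed peak of 86929 bp (Zscan4c), 21223 bp (Zscan4d), 79599 bp (Zscan4f) and 31707 bp (Zfp352). The 6 other Zscan4 copies gave the same picture, since none had a peak within 1000 bp of a start. The nearest peak was 7711 bp away for Zscan4-ps3 and 87458 bp away for Zscan4b, with the other copies between these distances.

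**Figure D1:**
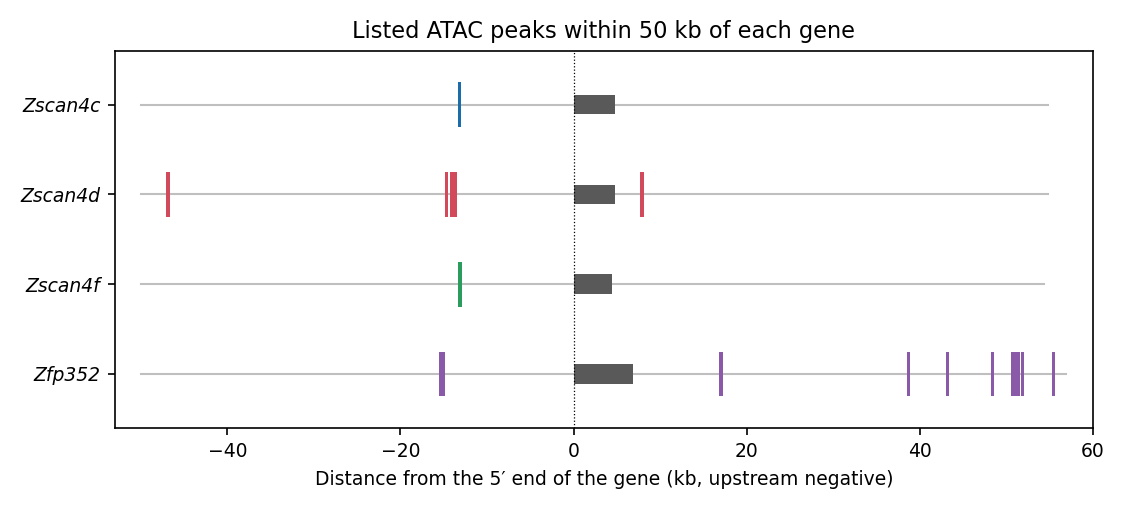
Listed ATAC peaks (coloured bars) in the window of each gene, by distance in kb from the annotated 5′ end, with negative values upstream and the gene body as a dark box. Narrow peaks are drawn wider than to scale so that they can be seen. No bar touches a gene body, Zscan4c and Zscan4f have a single peak at nearly the same distance upstream, and most peaks of the Zfp352 window lie far downstream.

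At least 1 peak within 50000 bp was found for each of the 4 genes and for 92.2% of protein-coding genes. Over protein-coding genes the median was 10 peaks, with quartiles of 4 and 15. The single peak of Zscan4c and of Zscan4f was a count that 13.2% of protein-coding genes did not exceed, the 4 peaks of Zscan4d one that 26.1% did not exceed, and the 9 of Zfp352 one that 49.3% did not exceed. For Zfp352 the count was 5 within 50000 bp of the annotated 5′ end and 2 within 20000 bp of the gene. Listed peaks covered 0.210% of the Zscan4c window, 0.431% of the Zscan4f window, 1.85% of the Zscan4d window and 3.00% of the Zfp352 window, and 2.00% of all chromosomes.

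The sequence of the windows differed from that around most genes. A pair of properties was measured. The soft-masked share is the percentage of bases that the reference marks as interspersed or simple repeats. The multicopy share is the percentage of 50-base words that occur more than once in chromosomes 1 to 19, X and Y, read on both strands. The libraries were sequenced in read pairs, with reads longer than 50 bases. A longer read or a read pair can still be placed where a single word of this length cannot. Shares from words of 50 bases can thus overstate the limit on placing reads. With words of 100 bases the shares were 53.9% for Zscan4c, 19.2% for Zscan4d, 66.6% for Zscan4f and 6.70% for Zfp352. The windows were 56.6% (Zscan4c), 55.6% (Zscan4d), 51.0% (Zscan4f) and 55.7% (Zfp352) soft-masked, against a median of 30.3% over protein-coding genes. At least 92.9% of protein-coding genes had a soft-masked share no higher than each of the 4. With words of 50 bases the multicopy shares were 73.3%, 43.4%, 83.9% and 17.8%, against a median of 5.52%. Thus the Zscan4 windows were high in both shares, and the Zfp352 window was as rich in masked repeats with fewer words repeated exactly.

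Within the gene bodies the 2 properties came apart. The bodies of Zscan4c, Zscan4d and Zscan4f were 18.3%, 18.1% and 16.3% soft-masked but 89.8%, 49.2% and 96.0% multicopy. Repeat masking therefore does not mark most of the sequence these genes share. Exons 2 and 3 of Zscan4c, of 472 and 160 bp, and the exons of the same length in Zscan4f were 100% multicopy. In Zscan4d the exons of 472 and 160 bp were 51.8% and 73.0% multicopy, so that this copy holds more sequence of its own. The Zfp352 gene body was 31.2% soft-masked and 4.78% multicopy.

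The copy number of each promoter was counted by BLAST as matches of at least 90% identity over at least 80% of the length, the query included. The queries were the same windows as printed, except that the Zscan4d query lay on the GENCODE start, at chr7:11166110-11166409. The promoters of Zscan4c, Zscan4d and Zscan4f each had 10 copies, all in the cluster, 9 of them at annotated Zscan4 genes or pseudogenes and 1 at chr7:11477807-11478104, where no Zscan4 copy is annotated. No listed peak overlapped any of the 10. The Zfp352 promoter had 2 copies. The other lay at chr8:42083264-42083565 at 94.4% identity, beside Zfp353-ps, a processed pseudogene at chr8:42081460-42083109. The longer exon of Zfp352 matched this pseudogene at 94.8%. No listed peak lay within 50000 bp of Zfp353-ps, and the nearest was 159315 bp from its start.

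To set the members beside windows of like sequence, protein-coding genes were grouped by the multicopy share of their window. In windows under 5% multicopy the median was 13 peaks and 85.7% of 9948 genes had a promoter peak. From 5 to 20% the median was 8 peaks and 69.2% of 9451 genes had a promoter peak, from 20 to 50% it was 2 peaks and 19.9% of 1475 genes, and at 50% or more it was 0 peaks and 9.12% of 1064 genes. Zscan4c and Zscan4f fall in the last group, in which 62.2% of windows held no peak and the third quartile was 1 peak, the number found at each. Zscan4d falls in the group from 20 to 50%, where its 4 peaks equalled the third quartile. Zfp352 falls in the group from 5 to 20%, where its 9 peaks lay between the median and the third quartile of 13, and where most genes, unlike Zfp352, had a promoter peak. By the sequence within 1000 bp of the start, a grouping added after the values were seen, Zfp352 was 12.9% multicopy, and 55.5% of 2388 genes between 5 and 20% had a promoter peak. For Zscan4c, Zscan4d and Zscan4f the same stretch was 80.5%, 43.2% and 83.9% multicopy, and 10.5% of 1215 genes at 50% or more and 31.995% of 797 genes between 20 and 50% had a promoter peak. How reads that align equally well to several copies were treated is not given in the sources used here, and its part in the missing peaks was not tested.

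**Figure D2:**
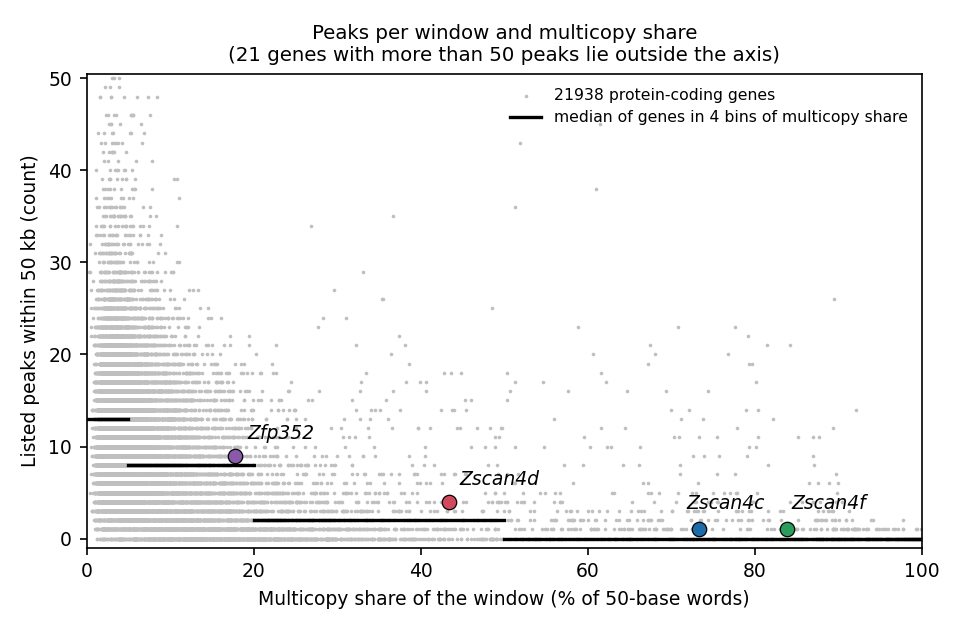
Listed peaks within 50 kb of each protein-coding gene (grey points) against the multicopy share of its window in percent, with black lines at the median of 4 bins and the 4 genes as coloured points. The medians fall from 13 to 0 peaks with rising multicopy share, and each of the 4 genes lies above the median of its bin. The 21 genes with more than 50 peaks lie outside the axis.

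The Zscan4 cluster, from 20000 bp before the first to 20000 bp after the last annotated copy, spans chr7:10774242-11634112, or 859871 bp. It held 19 peaks, 22.1 per Mb, compared with 42.2 per Mb on chromosome 7 and 37.6 per Mb over all chromosomes. The cluster was 67.4% multicopy and 53.7% soft-masked. Of the further copies, Zscan4a is annotated as an unprocessed pseudogene and all others as protein-coding. Zscan4b and Zscan4e had 0 peaks within 50000 bp and windows that were 82.0% and 81.9% multicopy. Zscan4a had 5 peaks, Zscan4-ps1 and Zscan4-ps2 had 3 each, and Zscan4-ps3 had 2, with windows between 46.8% and 72.0% multicopy.

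The peak of Zscan4c, at chr7:10992508-10992727 (220 bp), and the peak of Zscan4f, at chr7:11384526-11384975 (450 bp), are copies of one element. The Zscan4c peak lies in an intron of the pseudogene Gm7789 and the Zscan4f peak in an exon of the pseudogene Gm45598, 543 bp from one of its annotated starts. Their gaps to the gene starts were 13018 and 12940 bp. They were 70.8% and 72.3% multicopy, whereas 1.75% of all listed peaks were over 50% multicopy. The stretch covered by the Zscan4c peak is shown in 4 copies, at chr7:10816653-10816862 (minus strand, near Zscan4a), chr7:10992508-10992727 (plus strand, near Zscan4c), chr7:11384716-11384935 (plus strand, near Zscan4f) and chr7:11501126-11501345 (plus strand, near Zscan4-ps2). Capitals mark the 15 of 210 positions aligned in all 4 of them at which they are not all alike.
Element near Zscan4a: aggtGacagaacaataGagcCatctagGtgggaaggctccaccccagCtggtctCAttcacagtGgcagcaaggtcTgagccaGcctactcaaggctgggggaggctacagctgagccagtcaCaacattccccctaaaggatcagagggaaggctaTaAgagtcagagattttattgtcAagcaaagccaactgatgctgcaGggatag
Element near Zscan4c: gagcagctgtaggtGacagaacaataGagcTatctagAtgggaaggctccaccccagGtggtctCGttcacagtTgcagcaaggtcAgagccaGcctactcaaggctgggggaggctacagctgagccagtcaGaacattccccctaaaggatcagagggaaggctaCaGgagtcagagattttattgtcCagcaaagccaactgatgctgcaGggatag
Element near Zscan4f: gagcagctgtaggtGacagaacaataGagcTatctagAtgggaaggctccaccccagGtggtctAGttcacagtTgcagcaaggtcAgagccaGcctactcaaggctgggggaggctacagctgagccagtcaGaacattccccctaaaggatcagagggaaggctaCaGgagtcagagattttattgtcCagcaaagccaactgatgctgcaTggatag
Element near Zscan4-ps2: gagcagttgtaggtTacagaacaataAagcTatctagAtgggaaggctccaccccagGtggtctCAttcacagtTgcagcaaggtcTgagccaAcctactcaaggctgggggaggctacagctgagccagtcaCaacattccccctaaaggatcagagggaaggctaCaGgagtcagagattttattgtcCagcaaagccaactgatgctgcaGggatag

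The Zscan4c and Zscan4f copies differed at 2 of the 210 positions, the Zscan4c and Zscan4-ps2 copies at 6, and the Zscan4a copy differed from that of Zscan4f at 12. With the Zscan4c peak as the query, the element had 9 copies at 90% identity. Of the 8 copies other than the query, 6 overlapped a listed peak, and those at chr7:11464894-11465103 and chr7:11590544-11590753 did not. With the longer Zscan4f peak as the query, at 80% identity or more, the element also occurs 9 times, 8 times in the cluster and once in an intron of Aurkc, which encodes a kinase of the chromosomal passenger complex best known from germ cells. The Aurkc copy lies at chr7:6998887-6999316, far outside the cluster, at 89.7% identity. A listed peak overlapped 8 of these 9 longer copies, or 7 of the 8 copies other than the query. The copies with the highest multicopy shares, 84.04% and 72.3%, lie at the Zscan4c and Zscan4f peaks, which were chosen as listed peaks. The copy without a peak, near Zscan4-ps3 at chr7:11590342-11590766, was 15.96% multicopy, the lowest of all 9. With 1 unlisted copy, no comparison of shares can be made.

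Zscan4d had 4 peaks. The first, at chr7:11158028-11158426 (399 bp), lies 2948 bp beyond the end of the gene and was 6.29% multicopy. It has 1 further copy, at 96.7% identity beyond the end of Zscan4-ps3, and that copy was listed as well. The second, at chr7:11179650-11180479 (830 bp), and the third, at chr7:11180679-11180941 (263 bp), lie upstream, with gaps of 13491 and 14520 bp to the start. Both are intergenic, 1921 and 1459 bp from the nearest annotated start, that of Gm6909. The fourth, at chr7:11212762-11213206 (445 bp), lies 46603 bp upstream. They were 6.29% to 27.5% multicopy, and all were under 50% soft-masked, from 7.64% for the fourth to 48.3% for the second.

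The third peak of Zscan4d is shown as listed, at chr7:11180679-11180941 on the plus strand, because it is the one peak of the 15 with the GGATTA type of letters in its central 200 bp. Capitals mark them.
Zscan4d peak 3: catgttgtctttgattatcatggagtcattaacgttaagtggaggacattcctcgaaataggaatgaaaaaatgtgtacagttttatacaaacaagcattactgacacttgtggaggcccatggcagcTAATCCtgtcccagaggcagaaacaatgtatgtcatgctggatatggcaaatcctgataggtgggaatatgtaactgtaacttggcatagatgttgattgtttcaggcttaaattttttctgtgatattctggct

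GGATTA or its reverse complement was found in 2 of the 15 peaks, with 2 matches in Zscan4d peak 2 and 1 in Zscan4d peak 3. Among listed peaks within 10% of the same width, 21.6% and 8.70% held these letters. TGCACAC, the letters known for ZSCAN4 binding, were found in 1 of the 15, the second peak of the Zfp352 window, and in 8.26% of peaks of like width. None of the 15 held the DUX letters, which were present exactly in 0.0197% to 0.0747% and within 1 mismatch in 0.486% to 1.86% of peaks of the widths concerned. None held the octamer ATGCAAAT that OCT4 is known to bind, which was present in 0.777% to 3.88% of peaks of the widths concerned.

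The second Zscan4d peak also has a counterpart at Aurkc. Its sequence occurs 10 times at 80% identity or more over at least 80% of its length. It occurs 9 times in the cluster and once at chr7:6993518-6994361, just upstream of Aurkc, at 92.1% identity. Of the 9 copies of the Zscan4f peak element, 7 have such a copy of the second Zscan4d peak 5162 to 5600 bp away. The Aurkc pair lies at 5162 bp, the Zscan4c pair at 5179 bp and the Zscan4f pair at 5163 bp. Near the element copies of Zscan4a and Zscan4-ps1 no such copy was counted. Listed peaks there, at chr7:10809230-10810101 and chr7:11079657-11080577, matched a stretch overlapping the second Zscan4d peak at 93.5% and 93.1% identity. Shorter matches were thus left out. The upstream elements of Zscan4c and Zscan4f thus keep the spacing of the pair at Aurkc. Both Aurkc copies were listed, and Aurkc itself had a peak within 1000 bp of a start and 13 peaks within 50000 bp, in a window that was 23.96% multicopy.

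Apart from the second Zscan4d peak itself, which was chosen as a listed peak, 4 of its 9 other copies were listed and 5 were not. The listed ones were 8.15%, 20.3%, 33.2% and 66.4% multicopy, and the unlisted ones 58.5% to 100%, so that the ranges overlap between 58.5% and 66.4%. Left out of these counts are the shorter matches near Zscan4a and Zscan4-ps1, at listed peaks of 39.2% and 43.7% multicopy. The copies upstream of Zscan4c and Zscan4f, at chr7:10997320-10998124 and chr7:11389512-11390316, were 100% multicopy and unlisted. None of the 6 other copies of the fourth Zscan4d peak was listed, and they were 64.7% to 91.9% multicopy, so that listed and unlisted copies cannot be compared there. Whether the unlisted copies are closed or could not be called was not tested.

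**Figure D3:**
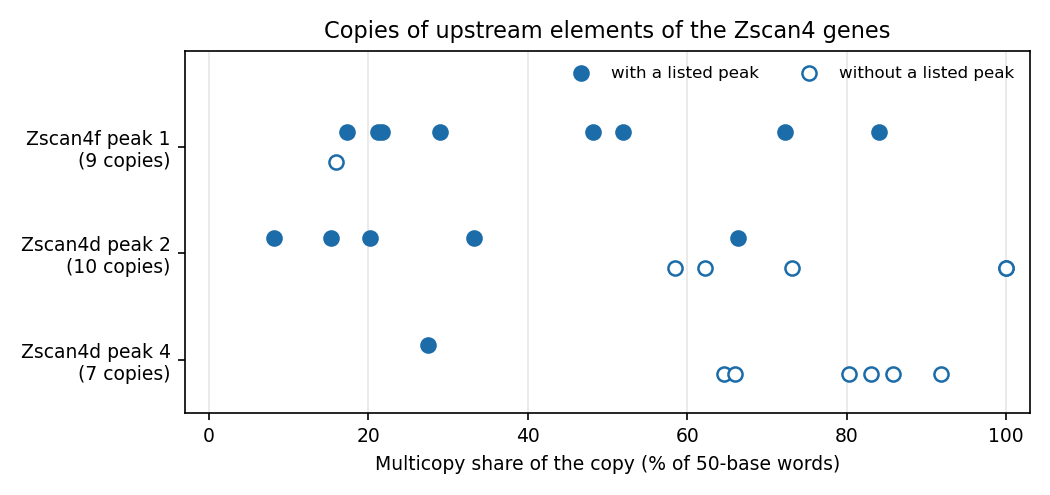
Multicopy share in percent of each genomic copy (80% identity or more over at least 80% of the length) of 3 peaks from the Zscan4f and Zscan4d windows. Filled circles are copies that overlap a listed peak and open circles are copies that do not. The filled circles include the peak itself, which was chosen as a listed peak and is the single filled circle for Zscan4d peak 4. Those for Zscan4f peak 1 also include the copy at the Zscan4c peak, chosen in the same way. The single open circle for Zscan4f peak 1 lies at the lowest share of its 9 copies. A pair of copies of Zscan4d peak 2 coincide at 100%.

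The 9 peaks of the Zfp352 window were all intergenic. The first, at chr4:90203326-90203960 (635 bp), lies 14860 bp upstream of the gene, and the second, at chr4:90235668-90236078 (411 bp), lies 9966 bp beyond its end. The other 7 lie 31617 to 48522 bp beyond its end. The fifth to the eighth of them, at chr4:90267202-90267345, chr4:90269488-90269644, chr4:90269676-90270424 and chr4:90270572-90270827, form a run. The widths of the 9 peaks ranged from 144 to 749 bp. The nearest annotated start to 9 of the 9 was that of Zfp352 itself.

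These peaks were rich in masked repeats, in a window that was itself 55.7% soft-masked. The soft-masked share exceeded 50% in 8 of the 9, with 33.1% in the sixth and 94.6% in the ninth, and in 11.2% of all listed peaks. In the Zscan4 windows it exceeded 50% in 0 of 6. The multicopy share went the other way, with 0 of 9 over 50% and a highest value of 35.3% at Zfp352, and 2 of 6 over 50% in the Zscan4 windows.

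**Figure D4:**
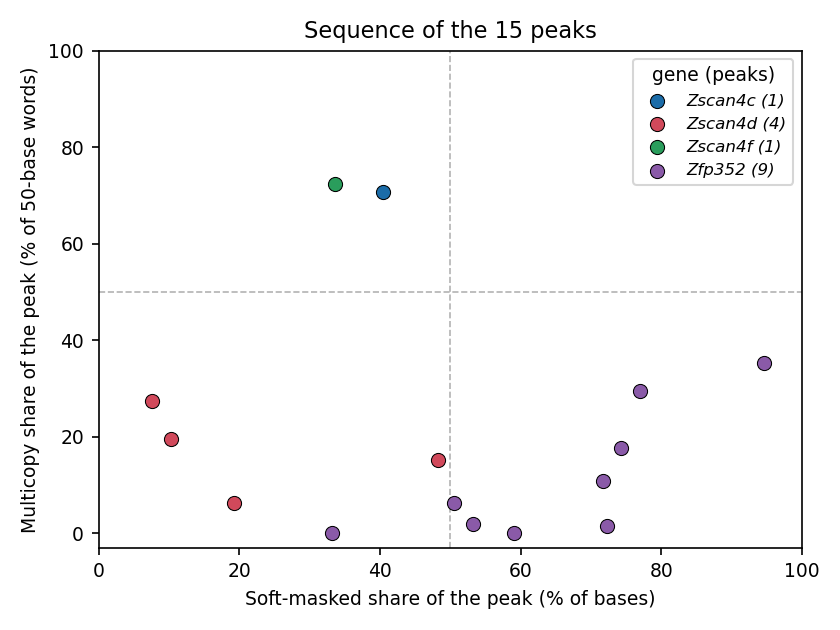
Soft-masked share (percent of bases) and multicopy share (percent of 50-base words) of each of the 15 peaks, coloured by gene, with dashed lines at 50%. Of the 9 Zfp352 peaks, 8 lie to the right of the vertical line, and the single peaks of Zscan4c and Zscan4f lie above the horizontal line.

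The third peak of the Zfp352 window, at chr4:90257319-90257713 (395 bp), had the most copies of the 9 at 80% identity or more, and the ninth had the most at 90%. The central 300 bases of the third peak, chr4:90257367-90257666 on the plus strand, are printed because of its copy number at 80%. They do not stand for the other peaks of the window. There are no capitals.
Zfp352 peak 3: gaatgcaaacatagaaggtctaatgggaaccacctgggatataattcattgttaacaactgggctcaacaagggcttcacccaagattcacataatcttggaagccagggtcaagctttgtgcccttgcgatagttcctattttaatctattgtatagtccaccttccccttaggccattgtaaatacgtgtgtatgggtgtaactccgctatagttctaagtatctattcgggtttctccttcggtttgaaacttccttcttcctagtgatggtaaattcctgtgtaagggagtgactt

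At 90% identity or more this sequence occurs 68 times on 19 chromosomes, and 53 of the 67 other copies (79.1%) overlapped a listed peak. At 80% or more it occurs 1238 times, and 645 of 1237 other copies (52.1%) did so. The fourth peak, at chr4:90261897-90262149, occurs 19 times at 90% with 13 of 18 other copies (72.2%) listed, and 136 times at 80% with 57.04% of the others listed. The second and seventh peaks occur 74 and 101 times at 80%, with 56.2% and 51.0% of the others listed. Copies of one repeat are not independent of each other. Listed peaks covered 2.00% of all chromosomes. The share of other repeats or stretches of like length that overlap a listed peak was not counted, so these shares have no matched background.

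Copies of the ninth and sixth peaks of the window were listed less often. The ninth peak, at chr4:90274224-90274428, occurs 141 times at 90% identity, with 9 of 140 other copies (6.43%) listed, and 423 times at 80%, with 5.69% of the others listed. The sixth occurs 80 times at 80% with 12.7%. The eighth occurs 30 times with 48.3% and the fifth 4 times with 1 of 3. The first peak occurs once. The files used here do not name repeat families, and none is given.

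**Figure D5:**
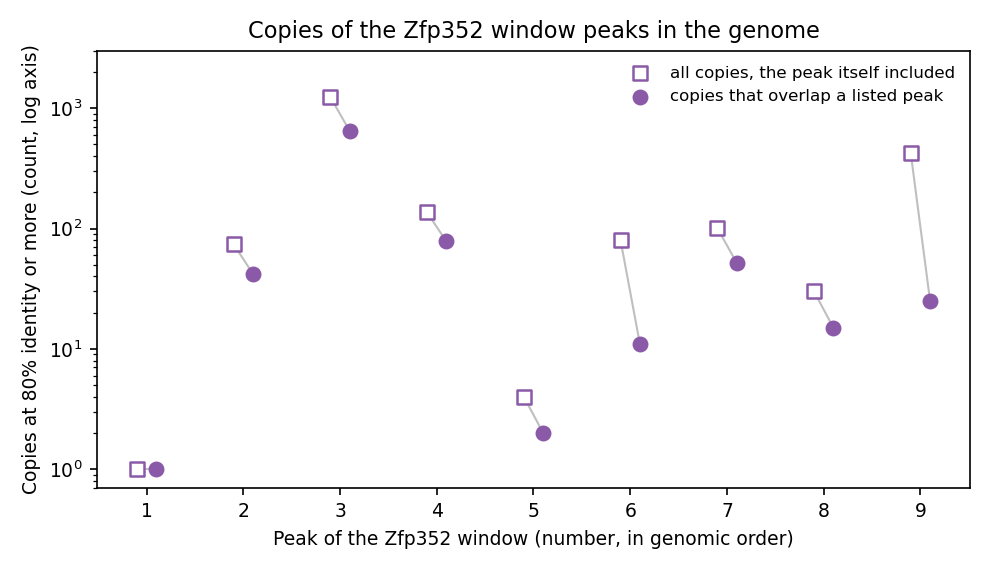
Number of genomic copies at 80% identity or more of each of the 9 peaks of the Zfp352 window (open squares, the peak itself included) and the number that overlap a listed peak (filled circles), on a log axis. Peak 3 has 1238 copies of which 646 overlap a listed peak, whereas peak 9 has 423 of which 25 do.

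Peaks just inside and just outside the 50000 bp limit were far from it for Zscan4c and Zscan4f. The outermost peak inside lay 13018 bp from Zscan4c and 12940 bp from Zscan4f, and the next outside lay at 69110 and 62257 bp, nearest to starts of the pseudogenes Gm7151 and Gm7207. For Zscan4d the distances were 46603 bp inside and 64035 bp outside, nearest to Gm9689 and Gm39481. For Zfp352 they were 48522 bp inside and 67204 bp outside, the latter nearest to Gm12629, a non-coding gene.

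The windows most like that of Zscan4c in peak count, soft-masked share and multicopy share, by the summed difference of percentile ranks over 21938 protein-coding genes, were those of Oog1, Defa25, Gm13769, Gm21312 and Gm14851. Each had 1 peak, the count being part of the choice. None had a peak within 1000 bp of a start, the nearest being 2373 bp away at Gm14851 and 19352 bp away at Gm13769. The windows most like that of Zfp352 were those of Vmn1r55 and Vmn2r90, which encode vomeronasal receptors, Klra17, which encodes a lectin-like receptor, Mat2b, which encodes a subunit of methionine adenosyltransferase, and Nr1d2, which encodes a nuclear receptor of the circadian clock. Each had 9 peaks, the count again being part of the choice. A start of Mat2b and of Nr1d2 lay inside a peak. The nearest peak was 1182 bp from a start of Klra17, 1558 bp from that of Vmn2r90 and 18799 bp from that of Vmn1r55.

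Other genes of the two-cell stage were looked up from a list of 34 symbols that includes the 4 members, of which 33 were found in the annotation. A promoter peak was present at 7 of the 33 (21.2%), compared with 70.4% of protein-coding genes. The median was 3 peaks within 50000 bp, from 0 to 17, and the median multicopy share of the window was 43.4%. The 7 genes were Duxf3, which encodes a DUX homeobox protein, Tcstv3, Tdpoz4, Usp17lb, which encodes a deubiquitinase, Gm5662, Arg2, which encodes the mitochondrial arginase, and Ddit4l, which encodes an inhibitor of mTOR signalling. Duxf3 had 8 peaks within 50000 bp, of which 1 overlapped its start. In windows with a multicopy share of 20% or more, 6 of 28 genes had a promoter peak, and under 20%, 1 of 5 did, which was Arg2. Among all protein-coding genes the share was 69.2% in windows from 5 to 20%, 19.9% from 20 to 50% and 9.12% at 50% or more. The 28 genes spanned the groups from 20 to 50% and of 50% or more, and the 5 genes under 20% included Zfp352. What the share in either part depends on was not tested. Zscan4a to Zscan4f are copies in the same cluster, so the genes of the list are not independent.

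Of 16 genes known to regulate the two-cell-like state of ES cells, 16 had a promoter peak, as did 85.7% of protein-coding genes with windows under 5% multicopy and 69.2% of those from 5 to 20%. They include Dppa2 and Dppa4, which act upstream of DUX, with 15 and 16 peaks within 50000 bp, and Trim28, Setdb1, Kdm1a, Chaf1a and Dnmt1, which encode proteins of chromatin silencing. Their median was 15.5 peaks, from 10 to 20, and their windows had a median multicopy share of 4.55%. Of 8 pluripotency genes taken for comparison, 7 had a promoter peak, with a median of 19.5 peaks and a median multicopy share of 4.29%. The exception was Nanog, which encodes a homeobox factor of the naive state and had its nearest peak 1402 bp from a start.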

How the data were processed

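ATAC-seq peaks of 16 libraries of dox-treated ZHBTc4 cells were analysed, and 4 libraries without dox were not used here. The authors aligned reads to mm10 (GRCm38) with STAR 2.6.1c, removed duplicates with Picard, kept chromosomes 1 to 19, X and Y, called peaks with MACS 2.1.1.20160309 in paired-end mode and combined the peaks of the dox-treated libraries into 1 list by means of BEDTools. The deposited file holds the coordinates of each merged peak, without score, count or p-value. The methods also name the removal of very wide peaks and of peaks in input or blacklisted regions. The list holds a peak of 38218 bp, so the width filter was not applied in it, and whether input and blacklisted regions were removed was not established. Treatment of multi-mapping reads is not given in the sources used here. Whether the list as analysed is the whole merged set was not established.

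Coordinates are in GRCm38 and counted from 1. Peaks were matched to GENCODE M21 genes, with a window of 50000 bp around the gene body and a promoter limit of 1000 bp on either side of any annotated start. Soft masking was read from the RefSeq GRCm38.p6 genome and promoter windows from RefSeq, which held all 4 genes. Words of 50 bases were counted on both strands with numba 0.67.0 and numpy 2.4.6, after tests on simulated data. Copies were sought with BLAST 2.17.0. Letters were searched on both strands, where overlapping matches of different motifs were counted for each. No test was run, since one merged list has no replicates. Most statements are a count or share set beside the same over all protein-coding genes or peaks. The shares of copies that overlap a listed peak have no such background. The genes named are the members, their family copies, genes with starts near the peaks, those beside the peaks next to the window limit, the 5 windows most like those of Zscan4c and Zfp352 and the rarer state in each list. Aurkc, Zfp353-ps, Gm7789, Gm6909 and the silencing genes were named after their values were seen. The members and lists were chosen with earlier results of these data known. Alternatives changed the window, the width of peaks, the joining of peaks, the word length, the identity of copies, the part of a peak searched and the promoter limit. Python 3.11.15 and matplotlib 3.10.9 were used.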

Additional observations from a re-analysis of the deposited data

How the results depend on the processing

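The count of 15 peaks became 7 with a window of 20000 bp, 25 with 100000 bp and 8 with peaks of at least 300 bp. The latter setting took away the 1 peak of Zscan4c (0 left) and moved its nearest peak to 73912 bp. Leaving out peaks of 50% multicopy or more took away the single peaks of both Zscan4c and Zscan4f (0 left each). The 9 peaks of Zfp352 became 2 with 20000 bp, 5 around the 5′ end and 4 with peaks of at least 300 bp. The multicopy share over the 3 Zscan4 windows together, 66.8%, was 84.7% with words of 24 bases, 46.5% with 100 bases, 71.3% in windows of 20000 bp and 77.9% in gene bodies. That of the Zfp352 window, 17.8%, was 39.4%, 6.70%, 13.0% and 4.78% under the same changes. The soft-masked shares of 54.4% and 55.7% were 46.8% and 45.8% in windows of 20000 bp and 17.6% and 31.2% in gene bodies. Zfp352 peaks with another copy fell from 6 to 1 at 95% identity, and peaks with the GGATTA type from 2 to 1 in the central 200 bp. The promoters of the 4 genes had no peak within 500, 1000 or 2000 bp or with peaks of at least 300 bp. Of 71 alternative values, 44 stayed within the limits set and 27 moved. The limit for shares was much tighter than that for counts, and every alternative soft-masked or multicopy share of the windows moved. The tally is therefore no measure of how firm the results are. The grouping by sequence within 1000 bp of the start was chosen after seeing the data. No paired analysis was possible because the merged list holds no value of any replicate. Depth is unknown, and for that reason an unlisted region cannot be called closed.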
